A study of Mus musculus with 2 samples.

Results

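The centrosome organises the microtubules of animal cells. It is built around a pair of centrioles, which are copied once in each cell cycle, and the pericentriolar material around them anchors the gamma-tubulin rings from which microtubules grow. In the neuroepithelium of the embryonic brain the centrioles also carry the primary cilium at the ventricular surface and serve the spindle poles of dividing progenitors. Inherited loss of several centrosome proteins, among them ASPM, WDR62, CDK5RAP2, CENPJ and STIL, is known as a cause of primary microcephaly. Here, the genes of this organelle were examined in embryonic mouse brain that lacks normal *Plzf*, a BTB and zinc finger transcription factor whose gene symbol is *Zbtb16*. The genes were taken by name: all genes on the array called *Cep* followed by a number (33 genes), together with 15 centrosome genes listed singly, such as *Pcm1*, *Pcnt*, *Plk4*, *Tubg1* and *Aspm*. This gave 48 genes of the 37071 gene names on the array.

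RNA came from the brain of wild type (C57BL/6) and homozygous luxoid (*Plzf* lu/lu) embryos at E10.5. The methods name forebrain and midbrain as the dissected regions. Luxoid is a spontaneous mutation present in every cell of the animal, and the strain labels of the animals read C57BL/6 and luxoid. There were 2 biological replicates, each being 1 Agilent array hybridised with a wild type sample in Cy3 and a *Plzf* lu/lu sample in Cy5. How many embryos made up a sample was not given in the sources used here, and the dyes were not swapped, so that a dye effect on a probe cannot be told apart from the genotype. In whole tissue, fewer cells of a type and less RNA per cell cannot be told apart either. *Zbtb16* itself had a processed signal of 433 in wild type and 172 in *Plzf* lu/lu on array 1, and of 546 and 211 on array 2.

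Centrosome genes were well represented in this tissue. The brightest probe of each of the 48 genes was well above background in all 4 channels, against 62.8% of all gene names. For 33 of the 48 (68.8%) the brightest probe also had, in every channel, a processed signal above 200 and a signal-to-noise ratio of 5 or more. This is the filter used here for testing, and 10600 gene names (28.6%) passed it. The 48 genes have more probes per name (128 in all) than the whole array (56605 probes for 37071 names). Shares taken at the brightest probe are therefore not like for like. The processed signals of these 33 genes lay between 208 and 2510. The other 15 genes, among them *Stil*, *Cep41*, *Cep44*, *Cep55*, *Cep72*, *Cep78*, *Cep152* and *Cep290*, were dimmer and are described separately without a test.

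Few of the centrosome genes differed between the genotypes. A single gene, *Pcm1*, exceeded its wild type level in *Plzf* lu/lu by over 1.3-fold on both arrays, and 0 were lower by that much. Over all genes tested, 2.58% were higher and 0.736% lower by this rule, so that 1 of 33 (3.03%) is near the background. With p-values from limma, adjusted by Benjamini-Hochberg across all 10600 genes, 0 of the 33 had an adjusted p under 0.05, against 0.0283% of all genes. At an adjusted p under 0.1, limma had *Pcm1* and *Cep70* as higher, 6.06% of the 33 against 7.60% of all genes, and 0 as lower, against 4.55%. At an unadjusted p under 0.05, 9 of the 33 (27.3%) were higher against 15.7% of all genes, and 0 were lower against 12.0%. These 9 were *Pcm1*, *Cep70*, *Cep131*, *Cep170*, *Cep120*, *Cenpj*, *Cep19*, *Cntrob* and *Aspm*.

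The log2 ratios, taken as *Plzf* lu/lu over wild type, stayed close to 0. Of the 33 genes, 31 (93.9%) stayed within 1.3-fold on both arrays, compared with 83.2% of all genes tested. The SD of the mean log2 ratio across genes was 0.16 for the centrosome genes and 0.21 for all genes. The mean log2 ratios ran from -0.14 for *Tubgcp3* to 0.50 for *Pcm1*, with a median of 0.071 beside 0.0067 for all genes. This median differed between the arrays, being 0.13 on array 1 and 0.0043 on array 2, while the medians of all genes were 0.020 and -0.0047. The log2 ratio was positive on both arrays for 14 of the 33 genes, negative on both for 8 and of opposite sign for 11. The same sign was thus seen in 66.7% of the centrosome genes and in 72.6% of all genes. Across the 33 genes, which share the same 4 hybridised samples and are not replicates, the correlation of array 1 with array 2 was 0.70 by Pearson and 0.64 by Spearman, beside 0.55 by Pearson over all genes.

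**Figure D1:**
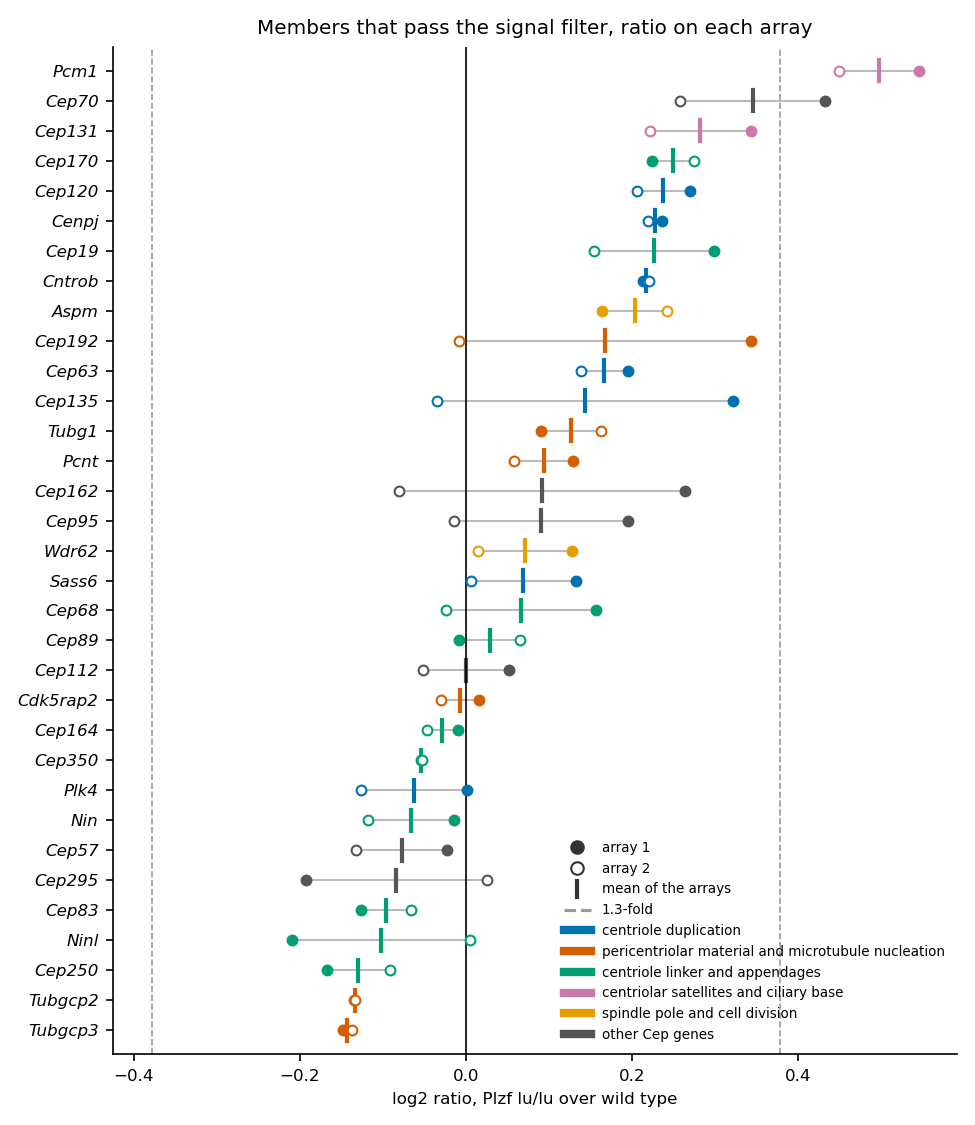
Log2 ratio of *Plzf* lu/lu over wild type for the 33 centrosome and centriole genes that passed the signal filter, ordered by their mean. Filled points are array 1, open points array 2, the short bar is their mean, the colour gives the role of the gene, and dashed lines mark 1.3-fold. *Pcm1* lies beyond 1.3-fold on both arrays and *Cep70* on array 1, while the other 31 genes lie between the dashed lines.

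*Pcm1*, which encodes the scaffold protein of the centriolar satellites, had the highest ratio. The brightest probe had a processed signal of 759.6 in wild type and 1108 in *Plzf* lu/lu on array 1, and of 844 in wild type and 1152 in *Plzf* lu/lu on array 2. Both *Plzf* lu/lu values were above both wild type values. The ratios were 1.46-fold and 1.37-fold, with a mean log2 ratio of 0.50 (SE 0.077, n = 2 arrays) and an adjusted p of 0.0518 in limma. This result rests on 1 of the 3 *Pcm1* probes. The probe that starts at base 1377 of the transcript NM_023662 had signals of 174 and 183 in wild type and 195 and 196 in *Plzf* lu/lu, with log2 ratios of 0.16 and 0.10. At base 5847 the signals were 111 and 119.8 in wild type and 119 and 120.0 in *Plzf* lu/lu, with log2 ratios of 0.097 and 0.0023. Both of these probes were well above background but under the signal filter, and neither was beyond 1.3-fold on an array. The third probe, near the 3′ end of the transcript at base 8300, is the one that carries the difference. Whether the 3 probes lie in coding or untranslated sequence was not analysed here.

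The probe stretches below show some of the parts of the transcripts of *Pcm1* and of 3 further genes that were read, since different probes of these genes gave different ratios. Each is the first 30 of the 60 bases of the probe, 5′ to 3′ in the sense of the transcript, with its place in build mm9.
*Pcm1* base 1377, chr8:42357680-42357739, plus strand: tttctgaacatttacctgatgagaaagtac
*Pcm1* base 5847, chr8:42414159-42414218, plus strand: tcaatatcttggaaaatgagcaacagttaa
*Pcm1* base 8300, chr8:42419361-42419420, plus strand: ctgtggaggtactctgtattttgtaacatt
*Cep70* base 307, chr9:99163026-99163274, plus strand: tatgtctagtcaaaggagcagatctcagag
*Cep70* base 2443, chr9:99200687-99200746, plus strand: ttaagataggaagttagtcatggagtgaaa
*Cep170* base 6047, chr1:178664607-178664666, minus strand: gggcttatcgctactaaaaagaaagcctgt
*Cep170* base 6678, chr1:178663976-178664035, minus strand: cgtttggtactgagtctatctacatgaaga
*Pcnt* base 3815, chr10:75867363-75871468, minus strand: taatgaagcaaaagaaagagaagctgcact
*Pcnt* base 9322, chr10:75814147-75814206, minus strand: tgcttgctttcttagcgtgtcaggatggga
The *Cep70* probe at base 307 and the *Pcnt* probe at base 3815 span more than 60 bases of the genome, so they cross at least 1 exon junction. Not printed are a *Cep70* probe at base 2335 and a *Cep170* probe at base 2653, each placed on another transcript of its gene. The latter passed the signal filter.

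The other satellite and ciliary base gene that passed the filter was *Cep131*, whose product travels with the satellites. Its signal was 597 in wild type and 757 in *Plzf* lu/lu on array 1, and 631 and 736 on array 2. The mean log2 ratio was 0.28 (SE 0.079, n = 2 arrays) with an adjusted p of 0.102 in limma, so it was above wild type on both arrays without passing the test. The dimmer genes of this group lay on both sides of 0. *Cep41*, a ciliopathy gene, had log2 ratios of 0.13 and 0.19, and *Cep72*, a satellite component, had 0.0035 and -0.020. *Cep290*, of the ciliary transition zone, had -0.26 and -0.066. *Cep78*, a centriolar gene of ciliated cells, had -0.27 and -0.22. The median of the group was therefore 0.39 over the 2 genes that passed the filter and -0.0082 over all 7.

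*Cep70*, which encodes a gamma-tubulin interacting centrosome protein, had the next highest ratio. Its signal was 294 in wild type and 397 in *Plzf* lu/lu on array 1, and 326 and 389.8 on array 2. These are ratios of 1.35-fold and 1.19-fold, so the gene passed 1.3-fold on array 1 only. The mean log2 ratio was 0.34 (SE 0.083, n = 2 arrays) with an adjusted p of 0.0843 in limma. The other 2 probes of *Cep70* were dim, with signals between 24.3 and 78.3. Their log2 ratios were 0.086 and 0.039 at base 307 of NM_023873, and 0.23 and 0.21 at base 2335 of XM_006511392. All 3 probes were thus positive on both arrays, with sizes that differed.

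Among the genes of centriole duplication, 7 of 11 passed the filter, and their median log2 ratio was 0.17, with 0.21 on array 1 and 0.14 on array 2. Of the 7, 5 were positive on both arrays, and 0 passed 1.3-fold or an adjusted p under 0.1 in limma. *Cep120*, *Cenpj* and *Cntrob*, needed for centriole length or assembly, had much the same ratio. *Cep120*, whose product promotes centriole elongation, had signals of 1483 and 1542 in wild type and 1788 and 1777 in *Plzf* lu/lu. *Cenpj*, which encodes a tubulin-binding elongation factor, had 599.8 and 660.0 in wild type and 706 and 768 in *Plzf* lu/lu. *Cntrob*, the gene of the daughter centriole protein centrobin, had 828 and 805 in wild type and 959.8 and 938 in *Plzf* lu/lu. In each of these genes both *Plzf* lu/lu values lay above both wild type values. The mean log2 ratios were 0.24 for *Cep120*, 0.23 for *Cenpj* and 0.22 for *Cntrob*, with an SE of 0.074 to 0.075 and adjusted p-values of 0.122, 0.128 and 0.139 in limma.

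*Cep63*, a mother centriole protein that recruits *Cep152*, had log2 ratios of 0.19 and 0.14, and *Cep152* itself, under the filter, had 0.026 and 0.047. A dimmer *Cep63* probe, well above background, pointed the other way with -0.28 and -0.15. The genes at the head of the duplication pathway, *Plk4*, *Sass6* and *Stil*, had lower mean log2 ratios than *Cep120*, *Cenpj* and *Cntrob*. Differences between genes were not tested. *Plk4*, the kinase that starts duplication, had signals of 459.7 in wild type and 460.03 in *Plzf* lu/lu on array 1, and of 522 and 478 on array 2. Its log2 ratios were 0.0011 and -0.13. *Sass6*, the cartwheel protein, had log2 ratios of 0.13 and 0.0056, with signals of 681 and 746 on array 1 and 718 and 721 on array 2. The direction for *Plk4* and the size for *Sass6* thus depended on the array. *Stil*, the partner of PLK4 and SAS-6 in cartwheel assembly, had signals of 215 and 195 in wild type and 177 and 168 in *Plzf* lu/lu. Its log2 ratios were -0.28 and -0.22 at this probe and -0.20 on both arrays at its other probe well above background, so that *Stil* was lower in *Plzf* lu/lu on both arrays in both probes, by less than 1.3-fold and at signals too dim to be tested. With *Stil*, *Cep76*, *Cep97* and *Cep152* included, the median of the group was 0.069.

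*Cep135*, which links the cartwheel to the centriole wall, was an example of a ratio that the arrays did not share. Its signal was 208 in wild type and 259.9 in *Plzf* lu/lu on array 1 and 234 and 229 on array 2, which gives log2 ratios of 0.32 and -0.035. *Cep192*, the scaffold that recruits PLK4 and pericentriolar material, had 0.34 and -0.0084, and *Cep162*, of the ciliary base, had 0.26 and -0.081. *Cep295*, needed for the conversion of centrioles to centrosomes, differed the other way, with -0.19 and 0.025. These 4 genes were picked as those past the filter whose arrays differed most, so a wide gap between their arrays follows from the choice. Their adjusted p-values in limma lay between 0.339 and 0.587.

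**Figure D2:**
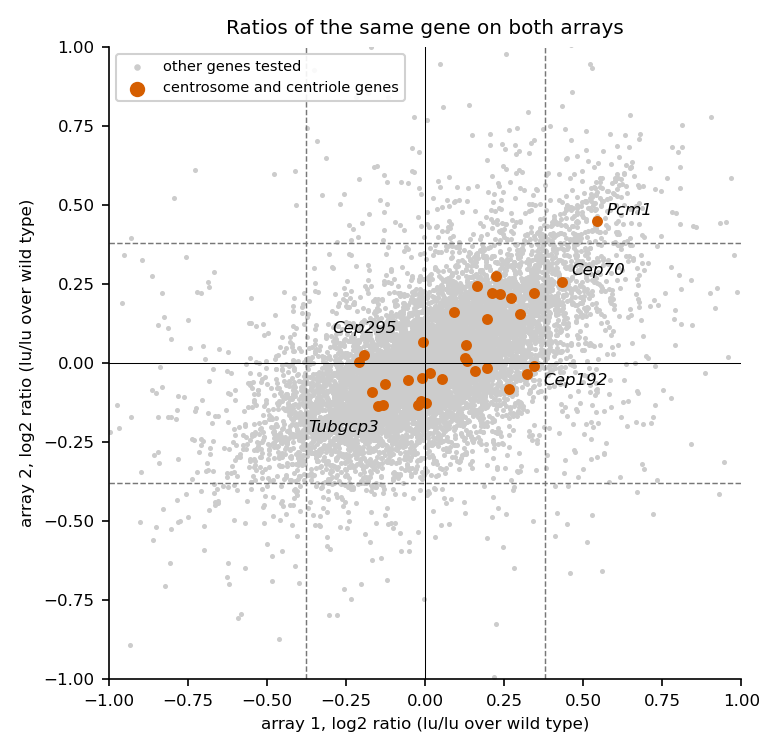
Log2 ratio of *Plzf* lu/lu over wild type on array 1 (horizontal) and array 2 (vertical) for the genes tested, with the centrosome and centriole genes in orange and 1.3-fold as dashed lines; 53 genes lie outside the plotted range. *Pcm1* is the only orange point in the upper right corner beyond both lines, and *Cep192* and *Cep295* are examples that lie near 0 on array 2 and away from it on array 1.

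The pericentriolar material and microtubule nucleation genes all passed the filter, and their ratios centred near 0 with a median log2 ratio of 0.043 over 6 genes, 0.052 on array 1 and -0.019 on array 2. None of the 6 passed 1.3-fold or an unadjusted p under 0.05 in limma. *Pcnt*, which encodes the pericentrin scaffold, had signals of 2296 and 2185 in wild type and 2510.02 and 2275 in *Plzf* lu/lu, with log2 ratios of 0.13 and 0.058. A dimmer *Pcnt* probe, at base 3815 of NM_001282992, pointed the other way, with 198 and 219 in wild type, 160.0 and 163 in *Plzf* lu/lu and log2 ratios of -0.31 and -0.42. *Cdk5rap2*, whose product activates the gamma-tubulin ring complex, had log2 ratios of 0.015 and -0.030 and was the gene of the 6 nearest to 0.

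Genes of the gamma-tubulin ring had ratios on both sides of 0, and none of those tested passed. *Tubg1*, gamma-tubulin, had signals of 1544 and 1391 in wild type and 1644 and 1558 in *Plzf* lu/lu, with log2 ratios of 0.090 and 0.16. *Tubgcp2* had 583 and 541 in wild type and 531 and 493 in *Plzf* lu/lu, and *Tubgcp3* had 1096 and 1069.6 in wild type and 989 and 973 in *Plzf* lu/lu. These 2 genes, which encode the proteins that pair with gamma-tubulin in the small complex, had the lowest mean log2 ratios of the 33, -0.13 for *Tubgcp2* and -0.14 for *Tubgcp3* (SE 0.074 each, n = 2 arrays). The SD between the arrays was 0.00073 for *Tubgcp2* and 0.0082 for *Tubgcp3*, with adjusted p-values of 0.290 and 0.266 in limma. Of the other *Tubgcp* genes, which are outside the naming rule, *Tubgcp4* had log2 ratios of 0.13 and 0.096 and *Tubgcp6* had 0.016 and 0.0095. *Tubgcp5*, which was under the filter, had 0.33 and 0.16, so these 3 were positive on both arrays. Also outside the rule, *Mzt1* had 0.18 and 0.26, with an adjusted p of 0.142 in limma, and *Mzt2* had 0.0029 and -0.0041. *Tubg2*, under the filter, had 0.11 and 0.012.

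Of the centriole linker and appendage genes, 10 of 11 passed the filter, with a median log2 ratio of -0.041. Negative ratios on both arrays were seen in 5 of the 10 and positive ratios on both in 2. *Cep170*, of the subdistal appendages, had signals of 407 and 405 in wild type and 476 and 489.7 in *Plzf* lu/lu, a mean log2 ratio of 0.25 (SE 0.075, n = 2 arrays) and an adjusted p of 0.113 in limma. Its second probe that passed the filter gave a mean of -0.035, and a dimmer one at base 6047 of NM_001099637 gave -0.44 and -0.079. *Cep19*, a ciliary gene with 1 probe, had signals of 1535 and 1668 in wild type and 1888 and 1855 in *Plzf* lu/lu and a mean log2 ratio of 0.23 (SE 0.080, n = 2 arrays), with an adjusted p of 0.148. The linker gene *Cep250*, which encodes C-Nap1, lay at the other end with log2 ratios of -0.17 and -0.092. *Cep83*, a distal appendage gene, had -0.13 and -0.067, the subdistal appendage gene *Nin* (ninein) had -0.015 and -0.12, and its relative *Ninl* had -0.21 and 0.0043. None of these passed the test, with adjusted p-values between 0.311 and 0.597 in limma.

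The spindle pole genes are the ones most often named in microcephaly. *Aspm*, a spindle pole protein of dividing progenitors, had signals of 812 and 796 in wild type and 909.6 and 942 in *Plzf* lu/lu, with both *Plzf* lu/lu values above both wild type values. The mean log2 ratio was 0.20 (SE 0.076, n = 2 arrays) with an adjusted p of 0.160 in limma. *Wdr62*, a second spindle pole gene, had log2 ratios of 0.13 and 0.014, with signals of 455 and 432 in wild type and 496 and 436 in *Plzf* lu/lu. *Cep55*, a midbody protein of the last step of cell division, was under the filter and had 0.0044 and 0.083. Among the remaining *Cep* genes the median over the 6 that passed was 0.045, and apart from *Cep70* the means of these 6 lay between -0.084 for *Cep295* and 0.092 for *Cep162*. *Cep57*, a pericentriolar gene, had log2 ratios of -0.023 and -0.13.

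**Figure D3:**
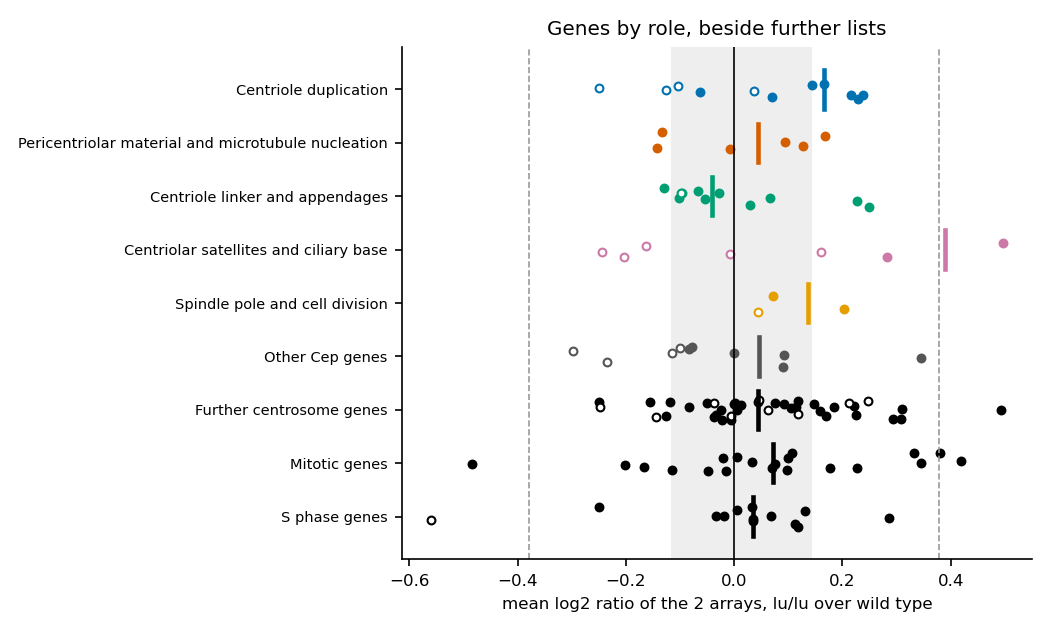
Mean log2 ratio of the 2 arrays for each gene, by role, with further centrosome, mitotic and S phase genes below (vertical positions within a row are arbitrary). Filled points passed the signal filter, open points were well above background only, the vertical bars are medians over the filled points, the grey band holds the central part of all genes tested between their quartiles (-0.11 to 0.14), and dashed lines mark 1.3-fold; in the duplication and satellite rows the open points lie mostly to the left of the filled ones.

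The 15 dimmer genes leaned to the other side. Their mean log2 ratio was negative in 12 of 15 (80.0%), against 50.6% of all genes that were well above background but under the filter, and their median was -0.11, against -0.0032. Signals of these 15 genes lay between 24.4 and 224, and their ratios were not tested. The scanner software's error of the log2 ratio on array 1 ran from 0.205 for *Stil* to 0.27 for *Cep44*. In the 33 brighter genes it was 0.204 to 0.205 over both arrays, so the dimmest ratios are the least certain. None of the 15 was past 1.3-fold the same way on each array, against 2.46% higher and 3.18% lower in the dim genes as a whole. *Cep44* had the lowest mean, with log2 ratios of -0.066 and -0.53 at signals of 25.6 and 38.7 in wild type and 24.4 and 26.8 in *Plzf* lu/lu, and the arrays did not share its size. Over all 48 genes the median was -0.0035, against 0.0018 for all genes well above background, so the median of 0.071 was that of the brighter genes and not of the whole set.

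Different probes of a gene gave a measure of spread that the arrays do not. Some of these probes are placed on different transcripts of a gene, and whether the spread is error was not tested. The 48 genes had 128 probes, of which 41 passed the filter and 109 were well above background. Of the 7 genes with 2 or more probes past the filter, 5 had probes of both signs in the mean log2 ratio. The median gap between the highest and the lowest such probe was 0.21, larger in size than the mean log2 ratio of 25 of the 33 genes. *Cep192* had the widest gap, 0.32, followed by *Cep170* with 0.28, *Cep295* with 0.27 and *Ninl* with 0.21. In *Cep68* the gap was 0.022. Of all 109 probes well above background, 1 was higher by more than 1.3-fold on both arrays, that of *Pcm1*, and 2 were lower. The 2 were single dim probes of *Cep126* and *Cep85*, with signals between 13.6 and 39.1 and log2 ratios of -0.51 and -0.45 for *Cep126* and -0.51 and -0.41 for *Cep85*. The brightest probes of both genes were within 1.3-fold on both arrays, while a further *Cep126* probe, not well above background, was also lower.

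**Figure D4:**
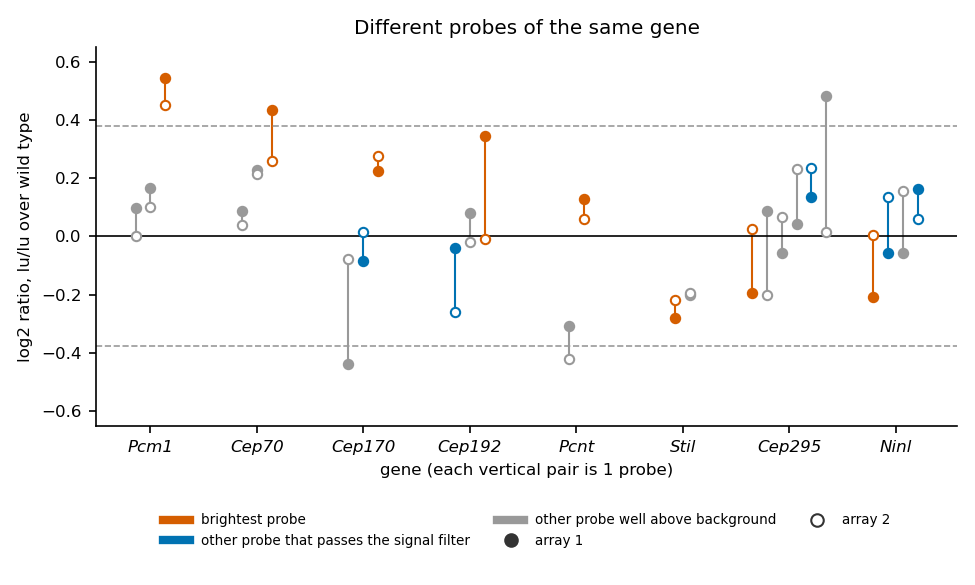
Log2 ratio of *Plzf* lu/lu over wild type at each probe well above background for 8 genes, where each vertical pair is 1 probe, filled on array 1 and open on array 2. Orange marks the brightest probe of the gene, blue other probes past the signal filter, grey dimmer probes, and dashed lines 1.3-fold; the bright *Pcm1* probe lies above both other *Pcm1* probes, the *Pcnt* probes lie on either side of 0, and both *Stil* probes lie below 0.

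Further centrosome genes outside the naming rule gave a like picture. Of 41 gene symbols listed, 40 were found on the array by that symbol and 31 passed the filter, with a median log2 ratio of 0.044. *Haus4*, a subunit of the augmin complex that seeds microtubules within the spindle, was the only one of the 31 above 1.3-fold on both arrays, and 0 were lower. Its signal was 1768 and 1863 in wild type and 2680.5 and 2429.8 in *Plzf* lu/lu, with log2 ratios of 0.60 and 0.38. The other augmin subunits that passed the filter, *Haus1*, *Haus3*, *Haus5*, *Haus6*, *Haus7* and *Haus8*, had means between -0.050 and 0.091. Of all genes tested, 2.58% were above 1.3-fold. At an adjusted p under 0.1, limma had 3 of the 31 as higher, against 7.60% of all genes tested. The lowest of the 31 was *Poc1b*, a centriole wall gene, with a mean of -0.25 and an adjusted p of 0.114.

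Genes of mitosis and DNA replication are read beside the centrosome genes, since the centrosome cycle runs with the cell cycle. Of 20 mitotic genes all passed the filter, 0 were beyond 1.3-fold on both arrays, and the median log2 ratio was 0.073, close to that of the centrosome genes. At an adjusted p under 0.1 in limma, 4 of the 20 were higher and 1 was lower, against 7.60% and 4.55% of all genes tested. The highest was the spindle checkpoint kinase *Ttk* with log2 ratios of 0.53 and 0.31, and the lowest was *Cdk1*, the kinase that drives entry into mitosis, with -0.68 and -0.29. Of 13 S phase genes 12 passed, 0 of them were beyond 1.3-fold on both arrays, and the median was 0.036. Among these 12 the highest was *Mcm4*, of the replicative helicase, with a mean of 0.29, and the lowest was *Cdc6*, a licensing factor, with a mean of -0.25. *Ccne2*, a cyclin of the entry into S phase that was under the filter, had log2 ratios of -0.40 and -0.72.

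Cell type markers also differed between the paired samples. All 6 neuroepithelial markers passed the filter, with summed signals of 22651 in wild type and 24185 in *Plzf* lu/lu on array 1 and of 20716 and 24967 on array 2. The 6 neuronal markers, of which 5 passed the filter, had a median log2 ratio over all 6 of -0.028 on array 1 and 0.66 on array 2. The summed signal of 6 erythrocyte genes was 465877 in the wild type sample of array 1, against 193893 to 249894 in the other 3 samples. Mesenchymal and crest markers were all present and summed to 7551 in wild type and 6981 in *Plzf* lu/lu on array 1 and to 6943 and 5552 on array 2, while of 6 hindbrain markers 0 passed. The part of these differences in the centrosome ratios was not tested.

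The 48 genes lie on 17 chromosomes, with 7 on chromosome 9, where *Zbtb16* lies. *Cep164*, of the distal appendages, is the nearest to it at a distance of 2.84 Mb (mm9), and its log2 ratios were -0.0097 and -0.048. *Cep70*, on the same chromosome, lies 50.7 Mb away. The GC content of the probes, which was related to the log2 ratio over all genes tested with a Spearman correlation of -0.33, had a median of 41.7% in the centrosome genes and in all genes, and a correlation of -0.17 over the 33 genes. With the trend on GC removed, the mean log2 ratio was 0.41 for *Pcm1* and 0.25 to 0.29 for *Cenpj*, *Cep70*, *Cep120* and *Cep131*. For *Aspm* it became 0.11, for *Cntrob* 0.13 and for *Cep170* 0.16. The ratios of these last 3 genes were thus more than 1.5 times smaller once probe composition was removed.

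Promoters of the centrosome genes were read for 4 short motifs in the 250 bases before the most upstream start site in RefSeq (GRCm38.p6), on both strands, for the 39 of 48 genes that matched by symbol. The CCAAT box (CCAAT) was present in 17 of 39 (43.6%), against 37.3% of the genes tested that had a promoter and 34.5% of all promoters. The cell cycle homology element (TTTGAA) was present in 5 of 39 (12.8%), against 10.6% and 16.3%. An E2F-like motif (TTTCGCGC, TTTGGCGC, TTTCCCGC or TTTGCCGC) was present in 3 of 39 (7.69%), those of *Cep63*, *Cep128* and *Tubgcp3*, against 3.86% and 1.92%. A TATA box (TATAAA) was present in 1 of 39 (2.56%), against 5.69% and 12.98%. The 39 include genes under the signal filter, while the genes tested do not. Among the 26 that passed it, 9 (34.6%) held the CCAAT box and 5 (19.2%) the cell cycle homology element. The E2F-like motif was present in 2 of these 26 (7.69%) and the TATA box in 0. The CCAAT share was thus above that of the genes tested over the 39 and below it over the 26. At their brightest probes the genes holding the E2F-like motif did not share a direction, with mean log2 ratios of 0.17 for *Cep63*, -0.099 for *Cep128* and -0.14 for *Tubgcp3*.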

How the data were processed

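The authors hybridised 2 Agilent SurePrint G3 mouse arrays and deposited the Feature Extraction 10.7.3.1 output, with processed intensity after background subtraction and rank-consistency LOWESS dye normalization within each array, and a table of the log2 ratio of Cy5 to Cy3. Because LOWESS centres each array, a shift shared by most genes cannot be seen. Control spots and outliers were dropped, the remaining spots were averaged per probe as log2 values, and a gene was represented by its brightest probe. Genes with a processed signal above 200 and a signal-to-noise ratio of 5 or more in every channel were tested with limma 3.58.1 in R 4.3.3 (intercept, eBayes, Benjamini-Hochberg adjustment), or by a ratio past 1.3-fold the same way on each array. With 1 residual degree of freedom the test leans on variance pooled across genes, and an exact sign-flip test of 2 arrays cannot go below p = 0.5. The number of arrays limits the precision. No spot was saturated, and 126 to 137 outlier spots were found per array. The procedure was tested on simulated data.

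Genes named in full were those beyond 1.3-fold on 1 or both arrays, the 8 highest and 8 lowest, the 4 whose arrays differed most, and those listed singly. The genes, role groups and further lists were chosen with earlier results of these data known. Values of some genes are not reported here. Alternatives were normexp (offset 50) with loess, median centring, the deposited log2 table, other filters, 1.2-fold and 1.5-fold, other probe rules, channels as separate samples, GC trend removal (lowess, span 0.67), eBayes with trend and each array alone. Python 3.11.15, pandas 2.3.3, numpy 2.4.6, matplotlib 3.10.9 and data.table (1.17.8) were used.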

Additional observations from a re-analysis of the deposited data

How the results depend on the processing

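The direction of 26 genes described singly was the same under centring and with the deposited table. Centring shifts each array only by its median (0.020 and -0.0047), and the deposited table holds the same ratios rounded. The other filters, eBayes with trend and channels taken as separate samples use the same ratios, so the direction could not change there. No paired analysis beyond the ratio within each array was possible because each array holds 1 sample of each genotype. The number of genes above 1.3-fold on both arrays was 1 under the other settings, 0 at 1.5-fold, and 1 to 2 with a single array, where *Cep70* joined *Pcm1* on array 1. With eBayes with trend and with channels as separate samples this number could not change. The other filters could add genes but keep the same *Pcm1* ratio. At an adjusted p under 0.05 in limma the number became 1, that of *Pcm1*, with median centring (0.0290), GC trend removal (0.0318) and eBayes with trend and robust (0.0337). Under these settings 600, 707 and 411 of all 10600 genes were below 0.05, in place of 3. At an adjusted p under 0.1 the number of higher genes was 6 with normexp and loess, 5 with GC trend removal, and 0 with the deposited table, with genes well above background and with no filter. Over all genes, in either direction, the numbers under these settings were 1646, 1749 and 0, 0 and 0, in place of 806 higher and 482 lower.

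The median log2 ratio of the duplication genes became 0.069 with genes well above background or no filter, that of the satellite genes -0.0082 (0.28 with 1 passing channel per array), that of the spindle pole genes 0.071 (0.17 with normexp, 0.10 with GC removal) and that of the other *Cep* genes -0.081 (-0.046 with GC removal, -0.033 to 0.12 over single arrays). That of the pericentriolar genes was -0.019 to 0.052 over single arrays. For the linker genes it was -0.036 to -0.012 over single arrays, -0.024 with normexp and -0.019 with the mean over probes. Sign turned for *Cdk5rap2* with normexp (0.036) and GC removal (0.080) and over single arrays (-0.030 to 0.015). It also turned over single arrays for *Cep135* (-0.035 to 0.32), *Cep162* (-0.081 to 0.26), *Cep192* (-0.0084 to 0.34), *Plk4* (-0.13 to 0.0011), *Cep295* (-0.19 to 0.025) and *Ninl* (-0.21 to 0.0043), and for the last 2 with the mean over probes (0.050 and 0.016). The cause was not tested. Signal over background limits the 15 dimmer genes.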
